A study of Homo sapiens with 12 samples.

Results

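UCP2, NDUFAF3, YBX3, RBM14, PLS3, FSCN1, COPS6 and LRBA are 8 protein-coding genes that had lower transcript levels in HEK293T cells supplied with 4-thiouridine (4SU) than in cells without it. They were selected on these measurements, as genes with lower values with 4SU both in the absence and in the presence of a clickable electrophilic purine (CEP), and they make up 8 of the 58735 genes counted and 8 of the 17729 genes with enough reads to be tested. The choice was made on the 4SU comparison, so the 4SU values of the 8 genes are given below as a description with no test, and only the CEP comparison averaged over 4SU, which the choice did not use, was tested for them.

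HEK293T is a human embryonic kidney line, here of wild-type genotype, and polyadenylated RNA was sequenced from 4 groups of 3 libraries. The DMSO group received vehicle, the CEP group AHL-Pu-1, a cysteine-reactive chloropurine with an alkyne tag, for 1 h at 25 µM, the 4SU group 100 µM 4SU for 16 h, and the CEP+4SU group both compounds. The treatment protocol of the labels gives the CEP dose as 25 mM, whereas the design text gives 25 µM. That protocol, which includes irradiation at 312 nm after 4SU labeling and before CEP, is written alike for all 12 libraries, and it does not say whether cells without 4SU were irradiated. All libraries come from a single cell line, and the study describes the 3 replicates of a group as biologically independent experiments, whose spread the p-values measure. Between 16569114 and 24644734 reads per library were counted on genes, 16569114 to 20673502 with 4SU and 17104731 to 24644734 without. The HEK293 marker genes PAX2, GATA3, NEFM, INA and VIM were read in every library, with the lowest FPKM of each between 0.832 and 40.5, while the blood marker CD3E had no read and the blood, hepatocyte, endothelial and pericyte markers PTPRC, ALB, PECAM1 and PDGFRB did not exceed 0.148 FPKM. The second replicates of CEP and CEP+4SU had the fewest genes detected, 22230 and 22627, where the other 10 libraries had at least 24376.

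4SU is a uridine analog that cells take up and build into newly made RNA, where light can link it to a bound protein. The 8 genes act in unrelated parts of the cell. UCP2 is a carrier of the mitochondrial inner membrane, and NDUFAF3 helps to assemble complex I of the respiratory chain. YBX3 is a cold shock domain protein that binds RNA and DNA, and RBM14 is a nuclear RNA-binding protein and transcriptional coactivator found in paraspeckles. PLS3 (plastin 3) and FSCN1 (fascin) bundle actin filaments. COPS6 is a subunit of the COP9 signalosome, the complex that removes NEDD8 from cullin ubiquitin ligases, and LRBA is a large BEACH domain protein of vesicle traffic, best known for keeping the receptor CTLA4 from degradation.

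The 150 bases upstream of the start site are shown for the 4 genes whose libraries with and without 4SU did not overlap (UCP2, YBX3, COPS6 and LRBA) and for the 2 that hold CCAAT (RBM14 and PLS3). The sequences are those of RefSeq on GRCh38.p14, read 5′ to 3′ toward the gene. A promoter was found for 7 of the 8 genes, and where a gene had several, the one nearest the outer end of the gene in the count table was taken. Capitals mark the letters CCAAT (the core of the box bound by NF-Y) and GGGCGG (the GC box bound by Sp1 family proteins), on either strand, so that CCAAT can also read as ATTGG and GGGCGG as CCGCCC.
UCP2 promoter, chr11:73983203-73983352, minus strand: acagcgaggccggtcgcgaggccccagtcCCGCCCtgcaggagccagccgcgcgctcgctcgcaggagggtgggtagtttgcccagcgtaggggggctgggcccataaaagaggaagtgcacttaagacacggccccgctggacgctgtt
YBX3 promoter, chr12:10723324-10723473, minus strand: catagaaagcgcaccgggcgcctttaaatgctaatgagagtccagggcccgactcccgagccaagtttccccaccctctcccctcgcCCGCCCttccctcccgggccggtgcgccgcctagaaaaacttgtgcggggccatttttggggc
RBM14 promoter, chr11:66616480-66616629, plus strand: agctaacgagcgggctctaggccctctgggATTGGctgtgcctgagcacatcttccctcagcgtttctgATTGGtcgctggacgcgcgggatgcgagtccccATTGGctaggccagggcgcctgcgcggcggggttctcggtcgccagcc
PLS3 promoter, chrX:115561024-115561173, plus strand: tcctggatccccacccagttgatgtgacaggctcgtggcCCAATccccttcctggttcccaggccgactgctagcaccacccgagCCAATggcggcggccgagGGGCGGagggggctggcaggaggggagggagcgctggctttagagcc
COPS6 promoter, chr7:100088819-100088968, plus strand: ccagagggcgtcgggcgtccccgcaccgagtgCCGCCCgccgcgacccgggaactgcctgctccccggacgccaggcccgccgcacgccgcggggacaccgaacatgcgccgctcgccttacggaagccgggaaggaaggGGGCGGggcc
LRBA promoter, chr4:151015728-151015877, minus strand: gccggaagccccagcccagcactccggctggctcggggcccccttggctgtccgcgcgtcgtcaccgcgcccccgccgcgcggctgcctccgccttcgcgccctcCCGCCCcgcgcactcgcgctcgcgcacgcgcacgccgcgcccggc
CCAAT was present in 2 of the 7 promoters, 2 copies in PLS3 and 3 in RBM14, and in 23.5% of the 35116 promoters of this length in the table. GGGCGG was present in 5 of the 7, with 2 copies in COPS6 and 1 each in UCP2, YBX3, LRBA and PLS3, and in 36.8% of all promoters. The TATA box letters TATAAA, searched on both strands, were in none of the 7 and in 6.7% of all. No motif was shared by the 7, and the GC content of these windows ran from 58% in NDUFAF3 to 83.3% in LRBA, with a median of 60% over all promoters. The promoters of the table were not limited to genes expressed in these cells, and a gene can have several. The shares over all promoters are therefore no matched background for the 7, and these letters describe the sequence only.

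Expressed per gene length and library size (FPKM), the transcripts differed widely in abundance. In DMSO, PLS3 had 310.5 ± 11.5 FPKM (SD, n = 3), FSCN1 82.3 ± 3.52, COPS6 51.4 ± 2.70, NDUFAF3 50.6 ± 3.48, YBX3 49.0 ± 2.46, RBM14 37.0 ± 2.36, UCP2 21.3 ± 2.04 and LRBA 7.58 ± 0.119. COPS6, NDUFAF3 and YBX3 overlapped in their ranges and were not separated by more than the spread between replicates, while each other neighbouring pair in this order was separate in all 3 libraries. Averaged over the 12 libraries, PLS3 stood at the 99.6th percentile of the genes tested and LRBA at the 63rd. All 8 lay above the median gene, at 3.76 FPKM.

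**Figure D1:**
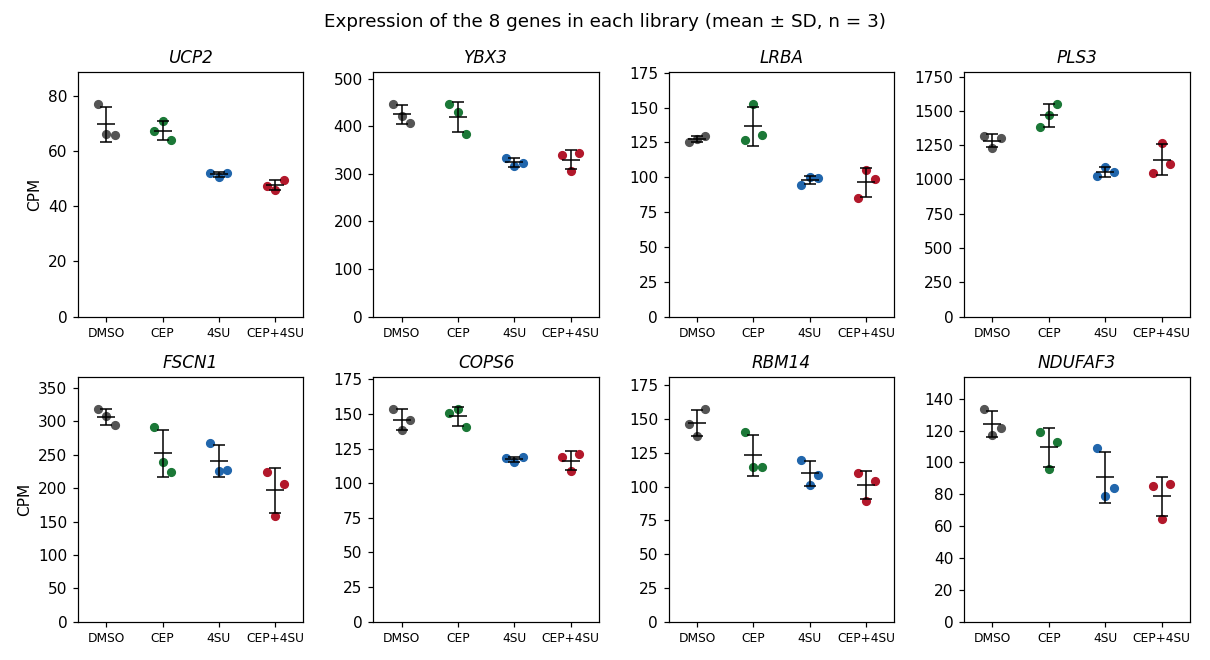
Normalized read counts (CPM, counts scaled to a common library size) of the 8 genes, with a point for each library and the mean ± SD of the 3 libraries of a group, on linear axes that start at 0. Within each panel the 4SU points lie below the DMSO points and the CEP+4SU points below the CEP points, and UCP2, YBX3, LRBA and COPS6 leave a gap between all 6 libraries with 4SU and all 6 without. The genes were chosen for lower values with 4SU in both settings. No share over all genes is given for the separation of 3 libraries from 3.

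The levels below are counts scaled to a common library size (CPM), on library sizes normalized by the trimmed mean of M values (TMM), in the order of replicates 1, 2 and 3, and are comparable between libraries for 1 gene but not between genes. Beginning with the mitochondrial genes, UCP2 (ENSG00000175567, chr11:73974667-73983307, minus strand, GRCh38) had 77.1, 66.1 and 65.6 CPM in DMSO and 67.4, 70.8 and 64.1 CPM with CEP. With 4SU it had 52.1, 50.4 and 52.0 CPM, and with CEP+4SU 47.2, 46.0 and 49.5 CPM. Every library with 4SU was thus below every library without, 46.0 to 52.1 against 64.1 to 77.1 CPM. The CEP+4SU libraries were also all below those with 4SU alone, and how many of all genes had this last separation was not counted. The log2 fold change was -0.435 (SE 0.086) for 4SU against DMSO and -0.50 (SE 0.086) for CEP+4SU against CEP, and averaged over CEP the level with 4SU was 72.3% of that without. In bulk RNA, fewer cells with a transcript and less of the transcript per cell cannot be told apart, for this gene and the others. DMSO replicate 1 was the highest library of its group, and without it the log2 fold change against DMSO was -0.353.

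NDUFAF3 (ENSG00000178057, chr3:49020459-49023495, plus strand) had 133.5, 117 and 122 CPM in DMSO and 119, 95.7 and 113 CPM with CEP. The values with 4SU were 108.9, 79.2 and 83.9 CPM, and with CEP+4SU 85.3, 64.7 and 86.3 CPM. Here 4SU replicate 1 lay above CEP replicate 2, so that the 6 libraries with 4SU overlapped the 6 without, although each 4SU group was wholly below its own reference group. The log2 fold change was -0.45 (SE 0.12) against DMSO and -0.475 (SE 0.12) against CEP, and the averaged level with 4SU was 72.5% of that without. NDUFAF3 shares 527 exon bases, 21.7% of its own, with DALRD3 on the opposite strand. Whether the reads were counted by strand is not stated, so reads of this stretch cannot be assigned to either gene with certainty. DALRD3 itself had 18.3 to 25.1 CPM in the 12 libraries and a log2 fold change with 4SU of -0.11 (SE 0.078, adjusted p = 0.593, edgeR quasi-likelihood test).

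Among the RNA-binding proteins, YBX3 (ENSG00000060138, chr12:10699089-10723312, minus strand) had 447, 421 and 408 CPM in DMSO and 446, 429 and 383 CPM with CEP. With 4SU it had 334, 316 and 322 CPM, and with both compounds 339.9, 307 and 343 CPM. The highest library with 4SU, at 343 CPM, was below the lowest without, at 383 CPM, and the CEP and DMSO libraries were interleaved. Against DMSO the log2 fold change was -0.39 (SE 0.074) and against CEP -0.35 (SE 0.074), and the averaged level was 77.4% of that without 4SU.

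RBM14 (ENSG00000239306, chr11:66616582-66627347, plus strand) had 146, 138 and 157 CPM in DMSO and 141, 114 and 114 CPM with CEP. The corresponding values were 119.8, 101 and 109 CPM with 4SU and 109.7, 89.6 and 104 CPM with CEP+4SU. Both 4SU groups were below their reference groups, but 4SU replicate 1 exceeded CEP replicates 2 and 3. The log2 fold change was -0.42 (SE 0.099) against DMSO and -0.28 (SE 0.0995) against CEP, the latter -0.185 without CEP replicate 1, and the averaged level was 78.4% of that without 4SU. A readthrough transcript of RBM14 and its neighbour RBM4, annotated as RBM14-RBM4, shares 432 exon bases (10.97% of those of RBM14) on the same strand. It had 7 to 39 reads per library and a log2 fold change with 4SU of 0.070 (SE 0.377).

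Of the actin bundling proteins, PLS3 (ENSG00000102024, chrX:115561174-115650861, plus strand) had 1320, 1229 and 1302 CPM in DMSO and 1384, 1472 and 1552 CPM with CEP. With 4SU the values were 1022, 1094 and 1051 CPM, and with CEP+4SU 1049, 1269 and 1115 CPM. All 3 CEP libraries were above all 3 DMSO libraries, and CEP+4SU replicate 2 exceeded DMSO replicate 2, so the 6 libraries with 4SU were not separate from the 6 without. How many of all genes had separate CEP and DMSO libraries was not counted. In edgeR, 18.6% of the genes tested had an unadjusted p under 0.05 for CEP against DMSO, which does not measure separation of libraries. PLS3 had a log2 fold change of -0.28 (SE 0.073) against DMSO and -0.36 (SE 0.073) against CEP. The averaged level was 80.0% of that without 4SU.

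FSCN1 (ENSG00000075618, chr7:5592823-5606655, plus strand) had 318, 307 and 294 CPM in DMSO and 292, 239.7 and 225 CPM with CEP. It had 268, 226 and 228 CPM with 4SU and 224, 159 and 207 CPM with CEP+4SU. The CEP libraries were all below the DMSO libraries, and the CEP+4SU libraries all below the 4SU libraries, so that the DMSO group was highest, the CEP+4SU group lowest and the CEP and 4SU groups overlapped between them. How many of all genes had these separations was not counted. Unadjusted p in edgeR was under 0.05 for 18.6% of the genes tested for CEP against DMSO and 7.89% for CEP+4SU against 4SU. These shares by p are not shares of genes with separate libraries. The log2 fold change was -0.35 (SE 0.11) against DMSO and -0.36 (SE 0.11) against CEP, the latter -0.231 without CEP+4SU replicate 2, and the averaged level was 78.2% of that without 4SU. The fascin transcript had the second widest spread within groups of the 8, with an SD of 0.18 on the log2 scale, after NDUFAF3 with 0.195 and ahead of RBM14 with 0.14.

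COPS6 (ENSG00000168090, chr7:100088954-100092200, plus strand) had 153, 138 and 145 CPM in DMSO and 151, 153.5 and 140.2 CPM with CEP. With 4SU it had 118, 115 and 119 CPM, and with CEP+4SU 119, 108.5 and 121 CPM. The libraries with 4SU had at most 121 CPM and those without at least 138 CPM, with no overlap. COPS6 had the smallest spread within groups of the 8 genes, an SD of 0.067 on the log2 scale, and its log2 fold change was -0.31 (SE 0.075) against DMSO and -0.35 (SE 0.075) against CEP. The averaged level was 79.5% of that without 4SU.

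LRBA (ENSG00000198589, chr4:150264531-151015727, minus strand) had 125, 127 and 129.8 CPM in DMSO and 127, 153 and 130.3 CPM with CEP. The libraries with 4SU had 94.7, 100 and 99.5 CPM, and those with CEP+4SU 85.1, 105 and 99.0 CPM. All 6 with 4SU were below all 6 without, and CEP replicate 2, a library with few genes detected, was the highest. LRBA had a log2 fold change of -0.38 (SE 0.089) against DMSO and -0.50 (SE 0.089) against CEP, and the averaged level was 73.7% of that without 4SU. LRBA shares 1491 exon bases (8.95%) with MAB21L2 on the opposite strand, which had 0 to 7 reads per library.

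Across the 8 genes, the averaged log2 fold change with 4SU ran from -0.47 (UCP2) to -0.32 (PLS3), with the median of all genes tested at -0.002. At an adjusted p of 0.05 or less in edgeR, 68 of all 17729 genes tested, or 0.384%, were called lower. Calls and ranks by p are not given for the 8 genes here, since this comparison chose them. Ranked by the size of the difference, the 8 genes held places 480 to 949 from the lowest. In the simple comparisons none of the 8 was called, 4SU against DMSO and CEP+4SU against CEP each having 1 gene called lower, or 0.00564%. All 6 libraries with 4SU were below all 6 without for 4 of the 8 genes and for 153 genes, or 0.863%, of those tested. Within each setting, all 3 libraries with 4SU were below all 3 without for each of the 8 genes. No share over all genes is given for that separation, which the choice of genes favored. These counts come from the comparison on which the genes were chosen, and nothing is read from them. The number called lower changed with single libraries. Without DMSO replicate 1, 2 or 3 it was 6, 18 or 13 genes, without 4SU replicate 1, 2 or 3 it was 41, 8 or 9, and without CEP+4SU replicate 1 or 3 it was 34 or 28. Without CEP replicate 1, 2 or 3 it was 59, 76 or 74, and without CEP+4SU replicate 2 it was 86. With both libraries of few genes detected left out it was 152. Scaling moved the split, from 68 lower and 31 higher to 43 lower of 80 with upper-quartile normalization and 26 lower of 71 with library size alone.

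**Figure D2:**
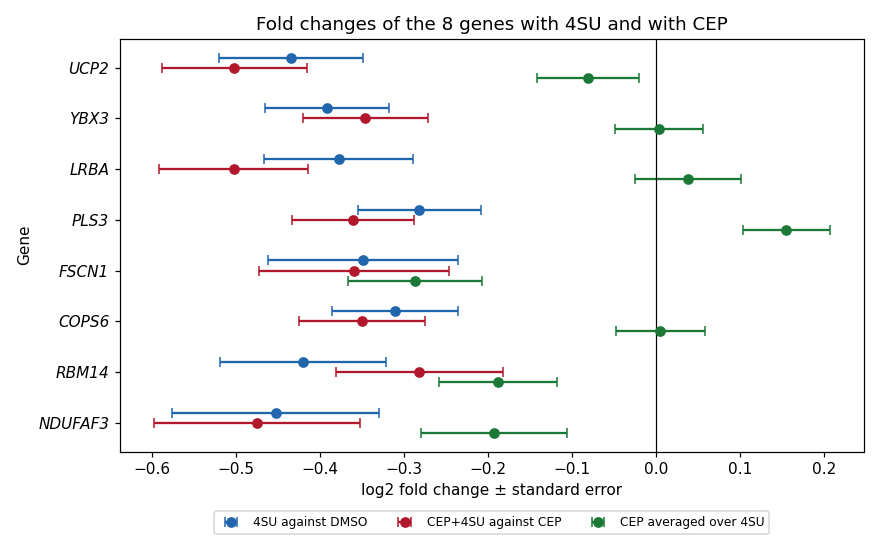
Log2 fold changes of the 8 genes ± standard error for 4SU against DMSO, CEP+4SU against CEP, and CEP averaged over 4SU, from one edgeR model of the 12 libraries. The blue and red points, which the choice of genes fixed below 0, lie between -0.28 and -0.50, while the green points run from -0.29 for FSCN1 to 0.155 for PLS3.

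The difference between the 4SU effect with and without CEP was at most about the size of its standard error for each gene. The interaction estimate ran from -0.125 (SE 0.125) for LRBA to 0.14 (SE 0.14) for RBM14 on the log2 scale. Genes were required to be lower in both settings, which limits this estimate, and it is given without a test.

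CEP was the comparison that the choice of genes had not used. None of the 8 genes passed the edgeR quasi-likelihood test for CEP averaged over 4SU, where 49 of all genes tested, or 0.276%, were called. At an unadjusted p under 0.05 there were 4 of the 8, PLS3, FSCN1, RBM14 and NDUFAF3, and 24.3% of all genes tested. PLS3 had a higher estimate with CEP, a log2 fold change of 0.155 (95% interval 0.047 to 0.264, adjusted p = 0.0934), or 111% of the level without CEP. FSCN1 had the lowest estimate, -0.29 (interval -0.454 to -0.12, adjusted p = 0.0728), or 82.0% of the level without CEP. The actin bundling genes therefore lay on opposite sides of 0 with CEP, with intervals that do not meet, whereas both were chosen for lower values with 4SU. Neither passed the edgeR test after adjustment. With each library's GC content trend removed, the estimates with CEP were 0.034 for PLS3 and -0.005 for FSCN1, both near 0. RBM14 had an estimate of -0.19 (interval -0.335 to -0.041, adjusted p = 0.118) and NDUFAF3 of -0.19 (interval -0.375 to -0.011, adjusted p = 0.184). For UCP2 the estimate was -0.081, with an interval from -0.208 to 0.047. For YBX3, COPS6 and LRBA the estimates were 0.003, 0.005 and 0.038, with intervals of -0.107 to 0.112, -0.106 to 0.115 and -0.093 to 0.169. The intervals cover the spread between replicates only, and removal of each library's GC content trend moved 6 of the 8 estimates past their ends, all but those of LRBA and COPS6.

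Calls for CEP depended on the test, the filter and terms of the model, and single libraries. DESeq2 called PLS3 (0.15, adjusted p = 0.046) and FSCN1 (-0.29, adjusted p = 0.0135). Without CEP replicate 1, edgeR called PLS3 (0.18, adjusted p = 0.0377), FSCN1 (-0.34, adjusted p = 0.0146) and RBM14 (-0.24, adjusted p = 0.0289), and without CEP+4SU replicate 1 it called FSCN1 (-0.355, adjusted p = 0.0315). The number of all genes called for CEP rose to 2171 and 1131 without these libraries, and was 21 to 38 without any other. With replicate number as a term of the edgeR model on all 12 libraries, 2269 genes were called. Among them were PLS3 (adjusted p = 0.0436), FSCN1 (0.00707), RBM14 (0.0267) and NDUFAF3 (0.0336).

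The 8 genes were next compared with genes of their families and complexes, 64 genes in 7 lists, of which 59 were tested. None of the 59 passed the edgeR test for 4SU averaged over CEP, with adjusted p from 0.0906 to 0.994, beside 0.558% of all genes tested, and none passed for CEP averaged over 4SU, beside 0.276%. At an unadjusted p under 0.05 there were 9 of the 59 with 4SU (15.3%, beside 12.6% of all genes) and 16 with CEP (27.1%, beside 24.3%), and DESeq2 called 1 with 4SU, FLNA, and 4 with CEP. The estimate with 4SU was below 0 for 39 of the 59, or 66.1%, with a median of -0.035, beside 50.7% and -0.002 for all genes tested. The 8 genes were chosen for low 4SU values and these were not, so their counts are not set against each other. These genes were listed by textbook membership and not by how they moved.

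**Figure D3:**
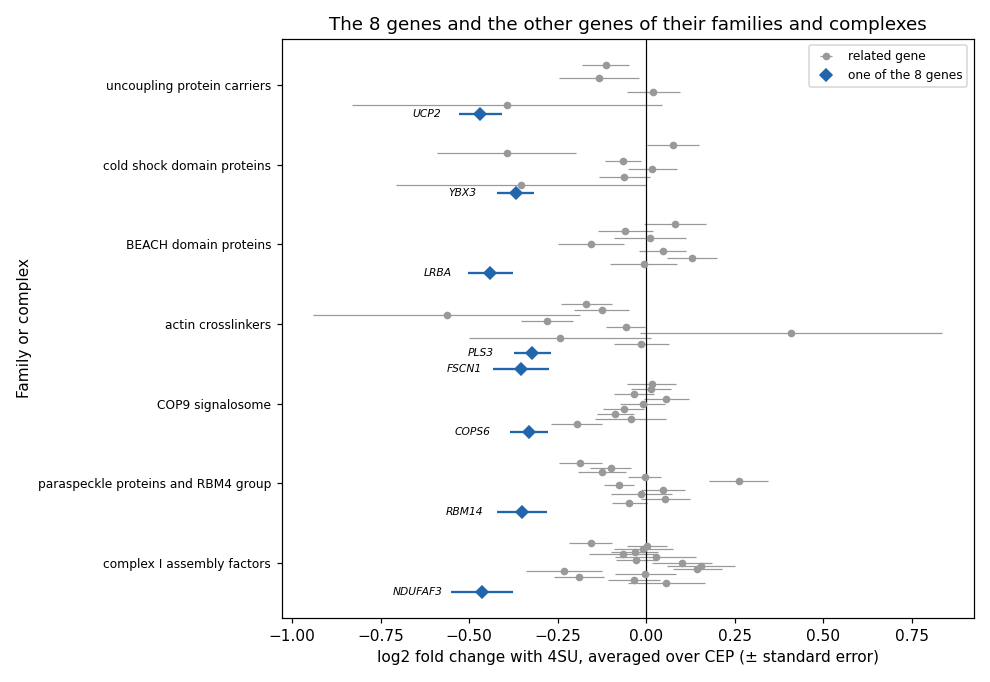
Log2 fold change with 4SU averaged over CEP ± standard error for the 8 genes (blue diamonds) and the tested genes of their families or complexes (grey points). The diamonds lie from -0.47 to -0.32, and 2 grey points, CSDC2 at -0.39 (SE 0.196) and ESPN at -0.56 (SE 0.377), lie below the diamonds of their lists.

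Next to UCP2, SLC25A30 and SLC25A14, the mitochondrial carriers with the most reads among its 4 tested relatives, had log2 fold changes of 0.020 (SE 0.075) and -0.115 (SE 0.067). The log2 ratio of UCP2 to the summed CPM of its relatives, a quantity that does not depend on library size, was -0.30 ± 0.16 (SD, n = 6) without 4SU and -0.72 ± 0.185 with it, with overlapping ranges. Of the 15 other complex I assembly factors, 9 had estimates below 0 and the median was -0.009, with TIMMDC1 at -0.19 (SE 0.071) and COA1 at 0.003 (SE 0.056). The ratio of NDUFAF3 to these factors was -2.56 ± 0.14 without 4SU and -2.98 ± 0.24 with it, again with overlap.

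YBX1, a Y-box protein like YBX3, had a mean of 1385 ± 205.9 CPM without 4SU and 1323 ± 55.04 CPM with it, a log2 fold change of -0.062 (SE 0.073). The ratio of YBX3 to its family was -2.76 ± 0.11 without and -3.07 ± 0.11 with 4SU, and the highest value with 4SU, -2.93, lay just above the lowest without, -2.94. For RBM14, HNRNPK and NONO, abundant proteins of paraspeckles, had -0.005 (SE 0.046) and -0.076 (SE 0.042), and the list of 10 ran from -0.19 (DAZAP1) to 0.26 (NEAT1, the RNA scaffold of paraspeckles). The ratio of RBM14 to its list was -4.945 ± 0.14 without and -5.25 ± 0.15 with 4SU, with overlap.

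Among the actin crosslinkers, FLNA (filamin A) had the smallest adjusted p of all related genes, with a log2 fold change of -0.28 (SE 0.0735, adjusted p = 0.0906), and ACTN4 had -0.13 (SE 0.078). The ratios of PLS3 and FSCN1 to this list differed by -0.12 and -0.16 on the log2 scale and overlapped between libraries with and without 4SU. The PLS3 value was -0.221 without CEP+4SU replicate 2, -0.067 and -0.082 without CEP+4SU replicates 1 and 3, and -0.060 without CEP replicate 3. PLS1, the other plastin with over 10 CPM, had -0.014 (SE 0.078).

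In the COP9 signalosome, 6 of the other 9 subunits had estimates below 0, and their median was -0.035. GPS1 (subunit 1) had -0.20 (SE 0.072, adjusted p = 0.239) and COPS3 0.013 (SE 0.0555). COPS6 had a log2 ratio to the summed CPM of these subunits of -2.84 to -2.67 in the 6 libraries without 4SU and -3.155 to -2.96 in the 6 with it, which did not overlap. LRBA against the other BEACH domain genes was likewise separate, with -1.31 to -0.998 without 4SU and -1.83 to -1.45 with it. NBEAL2 and WDFY3, the members of that family with the most reads after LRBA, had -0.16 (SE 0.093) and 0.13 (SE 0.070). For COPS6 and LRBA the separation was therefore present in a ratio of genes within a library, as a description, since the 4SU comparison had chosen both.

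The features of the transcripts varied among the 8 genes. The GC content of the longest annotated transcript ran from 38.8% in YBX3 and 39.0% in PLS3 to 64.0% in NDUFAF3 and 65.0% in FSCN1, the 10.9th to the 96.2nd percentile of genes tested, with 5 of the 8 above the median of 48.5%. The share of uridine, the base that 4SU replaces, ran the other way, from 17.7% in NDUFAF3 to 32.2% in YBX3, with 3 of 8 above the median of 25.0%. Exonic length ran from 2434 bases in NDUFAF3 to 16657 bases in LRBA, and 6 of the 8 were shorter than the median of 4341 bases. Of these features and abundance, abundance was the only one on which all 8 genes were on the same side of the median. The genes were chosen on the same counts that give their abundance, and whether the choice favored abundant genes was not tested.

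**Figure D4:**
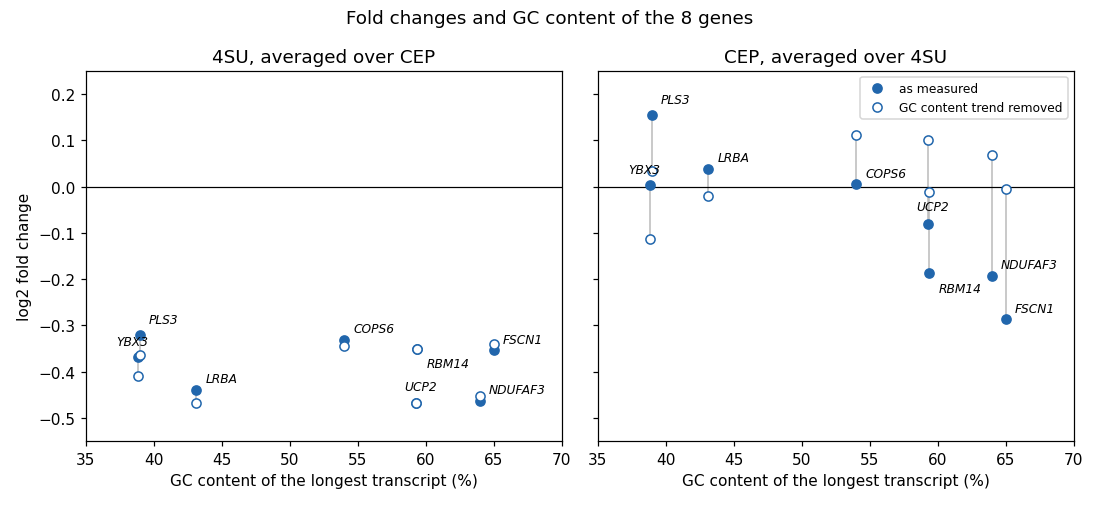
Log2 fold change of the 8 genes against the GC content of the longest transcript, as measured (filled) and after each library's trend of log2 CPM on GC content was removed (open). With 4SU the open points span -0.47 to -0.34 and the filled points -0.47 to -0.32. With CEP the open points of PLS3, RBM14, FSCN1 and LRBA lie near 0, while those of YBX3 and COPS6 lie at -0.113 and 0.111.

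Removing each library's trend of log2 CPM on GC content left the 4SU values of the 8 genes at -0.47 to -0.34. With CEP the same step moved FSCN1 from -0.29 to -0.005, RBM14 from -0.19 to -0.011 and PLS3 from 0.155 to 0.034. It also moved UCP2 from -0.081 to 0.10, NDUFAF3 from -0.19 to 0.069 and LRBA from 0.038 to -0.02, past 0. YBX3, from 0.003 to -0.113, and COPS6, from 0.005 to 0.111, moved away from 0. As measured, the 4 most GC-rich members, UCP2, RBM14, NDUFAF3 and FSCN1, had the negative CEP estimates and the GC-poor PLS3 the highest. YBX3, the most GC-poor of the 8, had an estimate of 0.003, so GC content did not order all the estimates. The part of GC content in these estimates was not tested.

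The members did not vary alike between replicates. Over the 12 libraries the 28 pairs of the 8 genes had Pearson correlations of log2 CPM from 0.152 to 0.976 with a median of 0.801, which the choice of genes raises, since all had lower values in the same 6 libraries. In deviations from the group means the correlations ran from -0.896 (PLS3 with FSCN1) to 0.852 (FSCN1 with RBM14), with a median of 0.312, and 11 of the 28 were below 0. FSCN1, RBM14 and NDUFAF3 deviated together, with correlations of 0.784 to 0.852. YBX3 deviated with COPS6 (0.846) and UCP2 (0.719) and as closely with FSCN1 (0.85), COPS6 also with UCP2 (0.807) and FSCN1 (0.652), and LRBA with PLS3 (0.60), so the genes did not form separate sets. LRBA and PLS3 deviated against FSCN1, RBM14 and NDUFAF3, from -0.594 to -0.896. These correlations share 12 libraries and their depths and are descriptions.

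The genes whose log2 CPM ran most like that of each member over the 12 libraries, among 10320 genes with at least 10 CPM, are named here, 2 for each. ACLY, the ATP citrate lyase, was among the nearest of UCP2 (r = 0.957), YBX3 (0.983) and COPS6 (0.979), and had itself a log2 fold change with 4SU of -0.27 (SE 0.048). The other nearest genes were PITRM1 for UCP2 (0.961), ACTG1, a cytoplasmic actin, for YBX3 (0.965), and DDB1, a component of a cullin ubiquitin ligase, for COPS6 (0.982). LRBA was nearest to GZF1 (0.959) and NDUFA10 (0.946), and PLS3 to HADHB (0.974) and ST13 (0.969). FSCN1 was nearest to MYO1C, an unconventional myosin (0.984), and EEF1A2 (0.979). For RBM14 the nearest were DBN1 (0.97) and INTS1 (0.96), and for NDUFAF3 SLC25A11 (0.987) and APEH (0.979). Likeness over these 12 libraries to genes chosen for low values in the 6 with 4SU fixes the sign of the 4SU estimates of these neighbours, which ran from -0.36 (ACTG1) to -0.16 (NDUFA10).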

How the data were processed

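RNA-Seq was analysed for 12 HEK293T libraries in 4 groups of 3, taken from the sample titles. The deposited counts are whole reads per gene, made by the authors with HISAT2 2.0.5 and featureCounts 1.5.0-p3 on GRCh38 per the labels, without normalization. The deposited FPKM values, made by the authors on a linear scale, divide these counts by gene length and library size. All 58735 genes and positions equal GENCODE 29. A deposited table of group means was not used. Strand use in counting is not given in the sources used here.

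With R 4.3.3 and edgeR 4.0.16, genes were filtered with filterByExpr (minimum count 10, minimum total 15), normalized by TMM and fitted in one quasi-likelihood model of the 4 groups without covariates. P-values were adjusted by Benjamini-Hochberg over the 17729 genes tested, with a threshold of 0.05. The common biological coefficient of variation was 0.114. CPM use TMM library sizes, log2 CPM for correlations a prior count of 2, and intervals are 95%. GC content was that of the longest GENCODE transcript. The fit was tested on simulated counts.

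The 8 genes and the lists of related genes were chosen with earlier results of these data known. The text names all 8 genes, of each list the genes past the threshold or, with none, the 1 or 2 with the most counts, and for each of the 8 genes the 2 nearest by correlation. One gene that this rule selects is not reported here, and counts and sums over its list include it. Other related genes (FLNA's adjusted p, PLS1, DAZAP1, NEAT1) were singled out after their values were seen. Alternatives were DESeq2 1.42.0, limma 3.58.1 on log2 FPKM, other normalizations and filters, GC and length trends removed, a replicate block and each library left out.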

Additional observations from a re-analysis of the deposited data

How the results depend on the processing

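Each of the 8 genes kept its negative 4SU value, averaged over CEP, in all 23 alternatives. The genes were chosen for low 4SU values in these same libraries, which made this outcome likely beforehand, and nothing is read from it. The log2 ratios to related genes, which the same choice affects, kept their sign and moved by less than 1 SD. That of PLS3 ranged from -0.221 to -0.060 with 1 library left out. Counts of genes called moved more. For 4SU averaged over CEP, 4SU against DMSO, CEP+4SU against CEP and CEP averaged over 4SU there were 99, 1, 1 and 49 calls, 68 and 31 of them lower for the averaged comparisons. DESeq2 gave 336 (230 lower), 19, 75 and 1474 (574 lower). No low-count filter gave 311 (218 lower), 41, 102 and 1448 (922 lower), and GC trends removed 914 (757 lower), 18, 249 and 74. Length trends removed gave 209 (163 lower), 3 for CEP+4SU against CEP and 144 (48 lower). Upper-quartile normalization gave 43 lower and 0 for the first and second comparison and 61 lower of 73 for CEP, and library size alone 26 lower and 0, with 39 lower of 50 for CEP. limma on log2(FPKM + 1) gave 15 (9 lower), 0, 0 and 16 (10 lower), and with a pseudocount of 0.1, 6 (2 lower), 0, 0 and 7 (4 lower). Leaving out both libraries with few genes detected, chosen after seeing the data, gave 222 (152 lower), 25 and 9. Leaving out 1 library gave 6 to 125 (6 to 86 lower), 0 to 1, 1 to 6 and 21 to 2171 (18 to 1044 lower). Why the counts moved was not tested.

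Replicate numbers were entered as a replicate block, which gave 336 calls (241 lower), 8, 5 and 2269 (1037 lower) and called PLS3 (0.15), FSCN1 (-0.29), RBM14 (-0.19) and NDUFAF3 (-0.19) for CEP. Deviations of libraries with the same number correlated at -0.047 to 0.141, with 1 of 18 pairs over 0.1. Those of libraries with other numbers correlated at -0.158 to 0.055, with 0 of 36 over 0.1. Of the 12 libraries, 7 correlated best with their own number. The sample titles give only the number, and whether it pairs the libraries cannot be told from these values.

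The sign of small CEP values changed. YBX3, at 0.003, was -0.004 with DESeq2, -0.020 with upper-quartile normalization, -0.010 with library size, -0.006 with no filter, -0.008 with at least 10 counts in every library, -0.005 with limma at both pseudocounts, -0.113 with GC trends and -0.027 with length trends removed. COPS6, at 0.005, was -0.001, -0.017, -0.007, -0.004, -0.006, -0.001 (pseudocount 1) and -0.002 (0.1) in the same order. LRBA, at 0.038, was -0.020 and -0.019 with GC and length trends removed and -0.042 without the libraries of few genes detected, and UCP2 and NDUFAF3 were 0.10 and 0.069 with GC trends removed. Leaving out 1 library gave -0.026 to 0.031 for YBX3, -0.025 to 0.028 for COPS6 and -0.008 to 0.066 for LRBA. FSCN1 was called for CEP with no low-count filter (-0.295, adjusted p = 0.000187). COPS6 in CEP+4SU against CEP moved from -0.35 to -0.28 without the libraries of few genes detected.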

Other observations

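PLS3-AS1, an antisense gene at the PLS3 locus that shares no exon base with it, had 3 to 30 reads per library and a log2 fold change with 4SU averaged over CEP of 0.43 (SE 0.384, adjusted p = 0.697, edgeR). NEAT1 had the highest 4SU estimate of the related genes with over 10 CPM, 0.26 (SE 0.083, adjusted p = 0.165, edgeR). Its estimate with CEP averaged over 4SU was -0.346 (SE 0.083, adjusted p = 0.0611, edgeR). DESeq2 called NEAT1 for CEP, so the call depended on the test.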
